A study of Mus musculus with 19 samples.

Results

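The cell cycle and mitosis genes described here are 41 mouse genes that encode the machinery of DNA replication and mitosis, together with G1 cyclins and transcription factors of the cycle. They were taken by symbol from a table of 34807 genes, and all 41 were found and passed the filter on low counts. They were read as 4 classes, with 21 mitotic genes kept apart from 14 replication genes, 3 G1 cyclins (Ccnd1, Ccne1 and Ccne2) and 3 transcription factors (Foxm1, E2f1 and Mybl2). RNA from whole, fresh-frozen tissue of female mice had been sequenced to ask how the cell of origin shapes BRAF-driven skin tumours. There were 6 Ivl:BRAFV600E tumours, 5 K5:BRAFV600E tumours, 4 K14:BRAFV600E tumours, all labelled squamous cell carcinoma, and 4 samples of wild-type (WT) normal skin. In the tumour mice a tamoxifen-inducible Cre recombinase had switched on activated BRAF, a kinase of the MAPK pathway, at an age of 7 to 20 weeks, and the labels of the normal skin carry the same text with that age. The Ivl promoter that drove Cre is active in basal cells committed to differentiation and in the suprabasal layers, and the Krt5 (K5) and Krt14 (K14) promoters are active in basal stem cells. Whether the mice that gave normal skin received tamoxifen is not given in the sources used here. The labels do not say that the libraries of a group came from separate animals, so the p-values measure the spread between these libraries.

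A dividing cell copies its DNA in S phase and separates the copies in mitosis, and each step has its own set of transcripts. E2F factors switch on replication genes at the end of G1, before DNA synthesis. In resting cells the DREAM complex holds mitotic genes down through their CHR elements. Later in the cycle B-Myb, FOXM1 and NF-Y, which binds CCAAT boxes, activate them, so most mitotic transcripts peak in G2 and M. In normal skin the dividing cells are mainly basal keratinocytes and the matrix cells of growing hair follicles. In bulk tissue, fewer cells of a type and less RNA per cell cannot be told apart.

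Library totals ran from 45715309 to 72609771 counts, and the members held between 249 and 40183 counts in a library. How counting error compares with the spread between libraries was not tested. Ivl tumours 1, 2 and 3 and K5 tumour 1 were picked out as a set by a scan of the counts. Of all 3876 sets of 4 libraries, this set had the largest share of genes (96.6% of 13954) with nearly equal means inside and outside it, differing by at most 0.1 log2, against 64.1% for the next set and a median of 29.5%. The set holds only tumours, while the libraries outside it include all 4 skins. For most genes the mean of these 4 tumours was thus nearly equal to a mean that includes skin. What this does to their levels, Rn7sk among them, and to the Ivl values against skin was not tested. Counts of raised members against skin, the calls between Ivl and K5/K14 tumours and the correlations between members are therefore also given without these 4 libraries. So are the counts for G1 regulators and for inhibitors of cyclin-dependent kinases. Most other values are given with all 19 libraries only. The skin libraries also differed from most tumours in an RNA without a poly(A) tail. Rn7sk, the 7SK RNA, was at 2279 to 3275 CPM of the library total in the 4 skins, at 1283 and 934.5 in Ivl tumours 2 and 3, and at 2.12 to 13.3 in the other 13 tumours, although all libraries are labelled as poly(A) libraries. Rpph1, another RNA without a tail, was at 0 to 0.0438 in all 19. Without the set of 4 libraries, Rn7sk separated every skin from every tumour, so whatever set its level cannot be told apart from tissue there. The scale also matters. The 100 most abundant genes took 17.3% to 21.1% of the counts in normal skin and 22.7% to 33.2% in tumours, and the trimmed mean of M values (TMM), which sets the scale from genes in the middle range, gave factors of 1.43 to 1.66 in skin and 0.81 to 1.15 in tumours. All levels below are counts-per-million values on the TMM scale (CPM) unless a share of the library total is named.

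Sequences upstream of 5 members show how the classes differ in the DNA that precedes the gene. RefSeq promoter windows (build GRCm38.p6, 250 bases before to 50 bases after the start) matched 32 of the 41 members in 33 windows. The CHR element was searched as TTTGAA or TTCGAA, the CCAAT box as CCAAT, and the E2F site as TTTCCCGC, TTTGGCGC or TTTGCGCG, each on both strands, and matches of different words may overlap. Windows are printed 5′ to 3′ on the strand of the gene, with matches in capitals. Cdc20, at chr4:118437294-118437593 on the minus strand, and Mki67, at chr7:135716330-135716629 on the minus strand, are shown for the CHR and CCAAT words of mitotic genes. Mcm5, at chr8:75109259-75109558 on the plus strand, is shown for the E2F word of replication genes. Birc5, at chr11:117848987-117849286 on the plus strand, and Tk1, at chr11:117825965-117826264 on the minus strand, are shown because they were the only members that differed between the tumour groups by the main test.
Cdc20: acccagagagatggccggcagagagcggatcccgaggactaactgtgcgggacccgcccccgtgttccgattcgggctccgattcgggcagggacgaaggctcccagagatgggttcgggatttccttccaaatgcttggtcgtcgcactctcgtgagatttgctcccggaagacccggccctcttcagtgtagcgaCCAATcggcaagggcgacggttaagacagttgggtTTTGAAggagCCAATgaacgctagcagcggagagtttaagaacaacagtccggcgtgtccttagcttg
Mki67: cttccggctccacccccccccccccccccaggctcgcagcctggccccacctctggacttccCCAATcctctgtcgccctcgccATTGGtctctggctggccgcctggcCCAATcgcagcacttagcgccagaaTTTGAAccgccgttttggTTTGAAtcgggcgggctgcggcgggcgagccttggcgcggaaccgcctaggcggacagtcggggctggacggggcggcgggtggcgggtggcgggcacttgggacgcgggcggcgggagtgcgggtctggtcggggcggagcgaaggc
Mcm5: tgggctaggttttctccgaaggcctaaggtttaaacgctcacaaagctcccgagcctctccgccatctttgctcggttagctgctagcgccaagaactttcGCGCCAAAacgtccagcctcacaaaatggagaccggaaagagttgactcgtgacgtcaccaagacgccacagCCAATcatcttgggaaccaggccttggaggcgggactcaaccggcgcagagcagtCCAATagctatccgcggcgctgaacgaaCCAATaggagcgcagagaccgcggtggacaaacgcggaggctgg
Birc5: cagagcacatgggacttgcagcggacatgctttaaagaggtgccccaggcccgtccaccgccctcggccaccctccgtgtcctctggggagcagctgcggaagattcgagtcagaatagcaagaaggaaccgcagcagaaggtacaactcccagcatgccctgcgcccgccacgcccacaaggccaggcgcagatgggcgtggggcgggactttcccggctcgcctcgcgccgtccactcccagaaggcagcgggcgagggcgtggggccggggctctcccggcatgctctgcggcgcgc
Tk1: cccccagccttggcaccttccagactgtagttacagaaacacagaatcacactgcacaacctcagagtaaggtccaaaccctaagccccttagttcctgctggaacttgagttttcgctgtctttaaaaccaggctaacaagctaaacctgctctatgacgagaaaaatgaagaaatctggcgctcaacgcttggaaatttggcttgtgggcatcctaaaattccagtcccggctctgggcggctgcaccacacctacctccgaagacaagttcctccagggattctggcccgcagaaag

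In Cdc20 a CHR word lay 18 bases before the start, between CCAAT words at 53 and 8 bases before it. Mki67 held CHR words 116 and 98 bases before the start and CCAAT words at 188, 166 and 141 bases. Mcm5 held an E2F word 149 bases before the start, CCAAT words at 77 and 22 bases before it and a further one 6 bases after it. No word was found in the windows of Birc5 and Tk1, which says only that these letters are not in these windows.

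Over the class, 14 of the 17 mitotic genes with a window held a CHR word (82.4%), against 2 of 12 replication genes (16.7%) and 21.7% of 27025 genes. A CCAAT word was in 16 of 17 mitotic genes (94.1%), 8 of 12 replication genes (66.7%) and 41.1% of all genes. An E2F word was in 6 of 12 replication genes (50%), in 0 of 17 mitotic genes and in 2.14% of all genes. Both a CHR and a CCAAT word were found for 14 of 17 mitotic genes, against 9.65% of all genes, counted over all windows of a gene. These are matches of letters and no measure of binding.

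In tumours, most members stood above normal skin on the TMM scale. In Ivl tumours 34 of 41 members were raised and 0 were lowered (edgeR quasi-likelihood test, Benjamini-Hochberg adjusted p under 0.05), where 20.4% of all 32031 genes tested were raised and 15.5% lowered. K5 and K14 tumours were merged, as in the study. In these K5/K14 tumours 32 of 41 were raised and 0 lowered, against a background of 23.2% raised and 38.9% lowered. Among protein-coding genes alone the raised share was 29.9% and 33.2%. Both comparisons use the same 4 skin libraries, so they are not independent. With K5 and K14 tumours apart, a comparison added later, 25 members were raised in K5 and 31 in K14 tumours, and 0 were lowered in either. Over all 32031 genes, 7108 and 6603 were raised and 10731 and 8294 lowered.

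By class, the Ivl tumours had 18 of 21 mitotic genes, 12 of 14 replication genes, 3 of 3 G1 cyclins and 1 of 3 transcription factors raised. The K5/K14 tumours had 15 of 21, 14 of 14, 2 of 3 and 1 of 3. The median log2 fold change was 0.93 for mitotic and 0.94 for replication genes in Ivl tumours, and 0.85 and 1.02 in K5/K14 tumours, while the medians over all genes were −0.46 and −0.60. Over 11895 protein-coding genes with a mean of 3 to 400 CPM, a level like that of the members, the medians were 0.22 and 0.23. Without the set of 4 libraries, 34 members were raised in Ivl tumours (background 22.2%) and 33 in K5/K14 tumours (background 23.9%). Fewer members had ranges that did not touch. In 9 members every Ivl tumour lay above every skin library (background 13.2%), and in 17 members every K5/K14 tumour did (background 16.7%). Without the set of 4, these counts were 32 (22.3%) and 21 (17.3%).

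**Figure D1:**
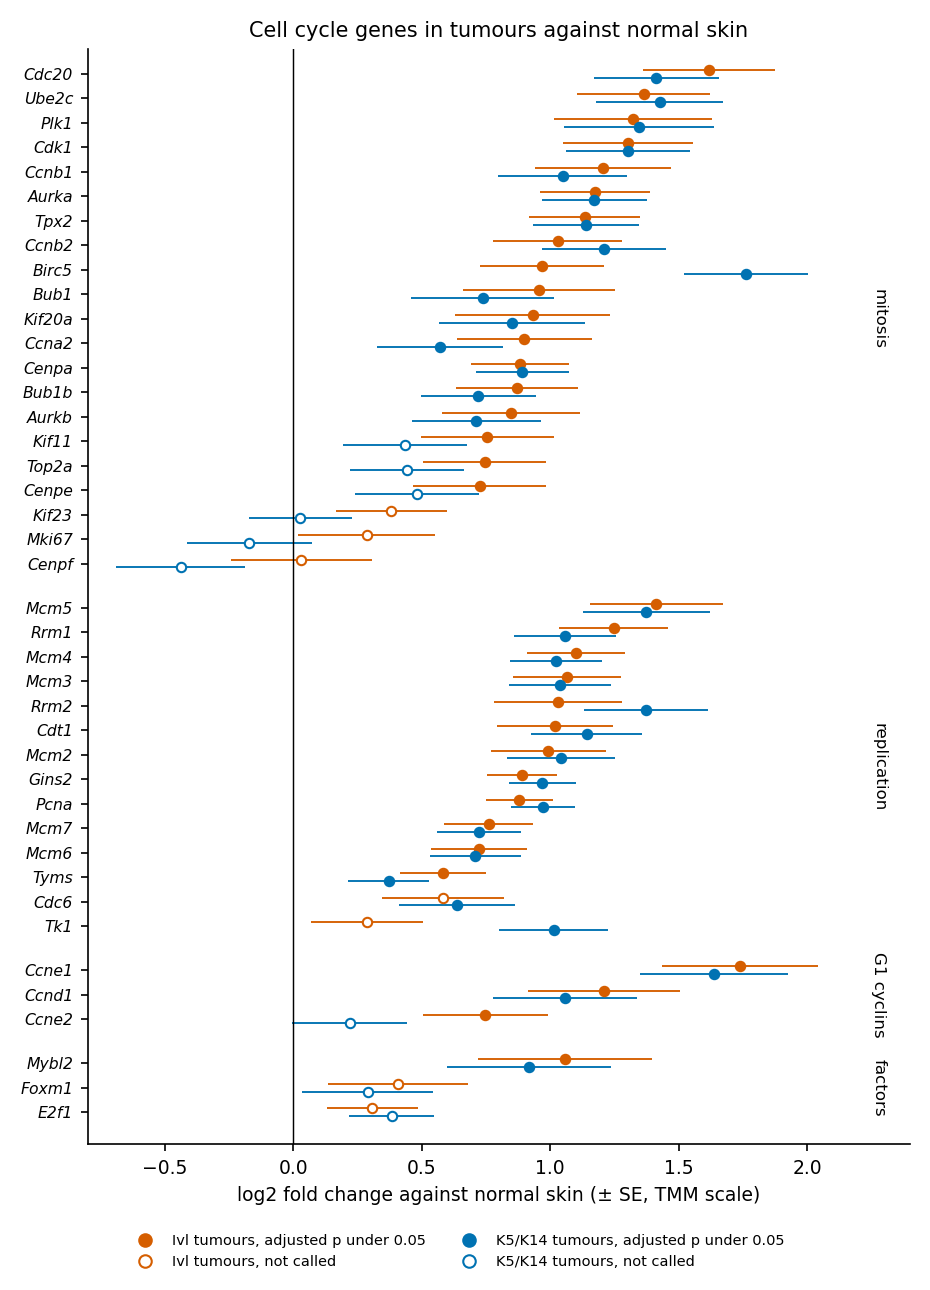
Log2 fold change of each of the 41 genes against normal skin on the TMM scale, with standard error, for Ivl tumours (orange) and K5/K14 tumours (blue), where filled points have an adjusted p under 0.05. Cdc20 lies highest among mitotic genes in Ivl tumours, at 1.62, and Kif23, Mki67 and Cenpf lie lowest in both groups. With library totals as the scale, 28 of the Ivl and 24 of the K5/K14 values are above 0.

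The scale set the size of this difference. When counts were divided by library totals alone, 5 members were called as raised in Ivl tumours and 6 in K5/K14 tumours, where 8.95% and 10.1% of all genes were. On that scale 1 and 6 members were called as lowered, where 48.3% and 64.5% of all genes were, and the value was above 0 for 28 and 24 of 41. The median log2 fold change was then 0.16 for mitotic and 0.22 for replication genes in Ivl tumours, and 0.01 and 0.18 in K5/K14 tumours. That scale moved the median of all genes by −0.68 and −0.80 log2, so on it too the members stood above the typical gene. The members called as raised on it were Ube2c, Cdc20, Mcm5 and Ccne1 in both comparisons, with Rrm1 in Ivl tumours and Birc5 and Rrm2 in K5/K14 tumours. Cenpf was lowered in both, and Mki67, Kif23, Tyms, Ccne2 and E2f1 were lowered in K5/K14 tumours.

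The sum over the 41 genes shows both scales library by library. On the TMM scale it was 2419, 1237, 1639 and 892.8 CPM in skin 1 to 4, 2118 to 3224 in Ivl tumours, 2002 to 2768 in K5 tumours and 2296 to 2977 in K14 tumours. As a share of the library total, it was 4014, 1898, 2442 and 1274 CPM in skin 1 to 4, 2251 to 3016 in Ivl, 1736 to 2533 in K5 and 2144 to 2527 in K14 tumours. Skin 1 was above every tumour on the second scale and within their range on the first, and skin 4 was below every tumour on both.

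**Figure D2:**
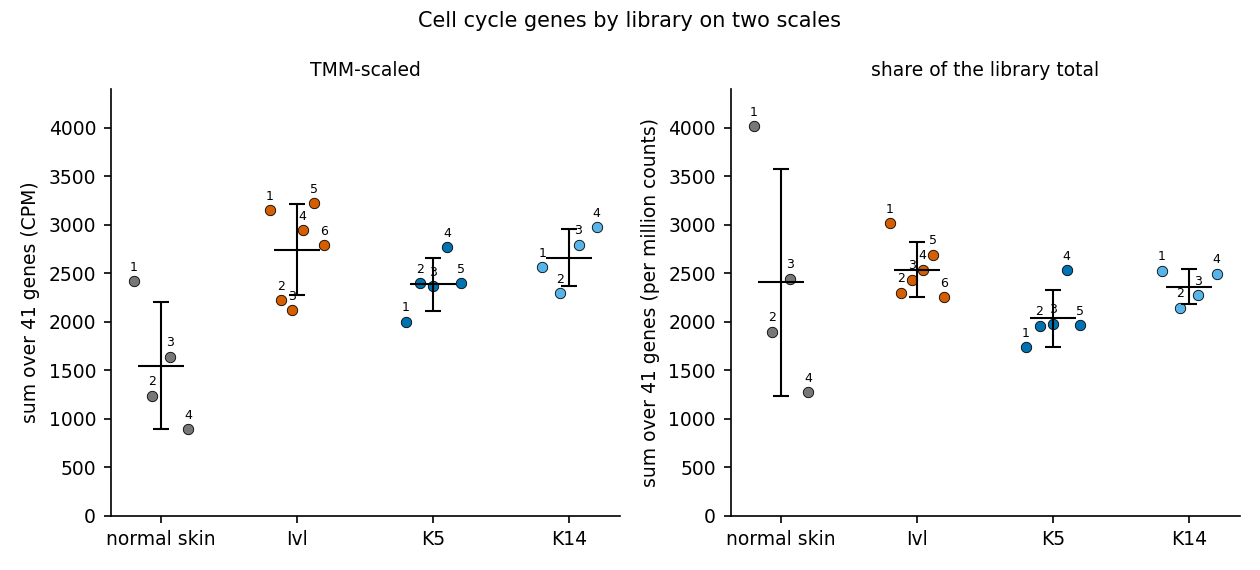
Sum over the 41 genes in each of the 19 libraries, in CPM on the TMM scale (left) and in CPM of the library total (right), with points numbered by replicate and the mean and SD of each group drawn as bars. Skin 1 lies at 2419 on the left and at 4014 on the right, where it is above all 15 tumours.

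Among the mitotic genes, 2 partners of the anaphase-promoting complex were among those with the largest changes. Cdc20, which activates this ubiquitin ligase, lay at 46.6, 24.3, 31.1 and 16.5 CPM in skin 1 to 4. In Ivl tumours its lowest, median and highest values were 71.0, 90.9 and 118 CPM, and in K5/K14 tumours 39.7, 83.4 and 96.0. All Ivl tumours were above all skin, while K5 tumour 1, the lowest, was below skin 1. Cdc20 rose by 1.62 ± 0.26 log2 (SE) in Ivl tumours (adjusted p = 7.08e-05) and by 1.41 ± 0.24 in K5/K14 tumours (adjusted p = 9.22e-05).

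Ube2c, the ubiquitin-conjugating enzyme of the same complex, was at 29.4, 14.1, 19.4 and 10.6 CPM in skin. It spanned 26.5, 49.6 and 67.8 CPM (lowest, median, highest) in Ivl tumours and 41.1, 51.2 and 58.4 in K5/K14 tumours. The lowest Ivl tumour overlapped skin 1 and the K5/K14 tumours did not. The rise was 1.36 ± 0.26 log2 in Ivl (adjusted p = 0.000375) and 1.43 ± 0.25 in K5/K14 tumours (adjusted p = 9.91e-05). Exons of Ube2c overlap those of the muscle gene Tnnc2 on the opposite strand over 22.8% of their length, and whether counting used strand is not stated. The summed skeletal muscle markers were 2218 to 6798 CPM in skin, 4.72 to 4044 in Ivl and 5.76 to 461.9 in K5/K14 tumours, and their part in this result was not tested.

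The mitotic kinases moved by similar amounts. Cdk1, which drives entry into mitosis, was at 38.0, 20.8, 26.2 and 12.7 CPM in skin, at 30.8, 65.3 and 77.2 in Ivl tumours and at 49.6, 59.2 and 71.1 in K5/K14 tumours. Ivl tumour 2 alone lay within the skin range. Cdk1 rose by 1.30 ± 0.25 log2 in Ivl (adjusted p = 0.000475) and by 1.30 ± 0.24 in K5/K14 tumours (adjusted p = 0.000183). Aurka, a kinase of the spindle poles, was at 16.4, 9.75, 12.1 and 7.48 CPM in skin, at 16.2, 26.1 and 33.7 in Ivl and at 20.0, 27.0 and 30.8 in K5/K14 tumours. Its lowest Ivl value was just below skin 1. Aurka rose by 1.17 in both groups (adjusted p = 0.000269 and 0.000105).

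The other spindle, cyclin and checkpoint genes rose by less or by similar amounts. Plk1, a kinase of mitotic entry and cytokinesis, rose by 1.32 and 1.35 log2 in Ivl and K5/K14 tumours. Tpx2, which activates Aurora A on the spindle, rose by 1.14 in both, and its 15 tumour values were all above its 4 skin values. The B-type cyclins Ccnb1 and Ccnb2, partners of Cdk1, rose by 1.21 and 1.03 in Ivl and by 1.05 and 1.21 in K5/K14 tumours. Ccna2, the cyclin of S phase and G2, rose by 0.90 in Ivl tumours. In K5/K14 tumours it had 0.57 with an adjusted p of 0.0498, a call lost with 16 of the 19 libraries left out in turn (adjusted p up to 0.211) and under 8 of 10 other settings, among them DESeq2 and no filter. The checkpoint kinases Bub1 and Bub1b, the centromeric histone Cenpa, Aurora B (Aurkb) and the kinesin Kif20a rose by between 0.71 and 0.96 in both groups. Of these, Bub1 in K5/K14 tumours was not called under 5 of 10 other settings and Kif20a in Ivl tumours under 4. Exons of Kif20a overlap Cdc23 over 29.3% of their length and exons of Ccna2 overlap Exosc9 over 12.5%.

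Mki67, Cenpf and Kif23 were not called in either group, and for each of them 1 skin library decided that in 1 of the groups. Without skin 1, Mki67 (0.67, adjusted p = 0.0436) and Kif23 (0.69, adjusted p = 0.0115) were called as raised in Ivl tumours, and without skin 4, Cenpf (−0.71, adjusted p = 0.0107) was called as lowered in K5/K14 tumours. Mki67 encodes Ki-67, the protein stained to count cycling cells. Its levels were 529.8, 251.6, 320.5 and 133.9 CPM in skin 1 to 4, 304, 380 and 433 (lowest, median, highest) in Ivl tumours and 173, 276 and 401 in K5/K14 tumours. Skin 1 was above every tumour and skin 4 below every tumour. The log2 difference was 0.29 ± 0.27 in Ivl (adjusted p = 0.377) and −0.17 ± 0.24 in K5/K14 tumours (adjusted p = 0.549), and the second turned to 0.22 when skin 1 was left out.

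Relative to Cdk1 and Cdc20, Mki67 was higher in skin. The ratio of Mki67 to Cdk1 in CPM was 10.6 to 13.9 in the 4 skin libraries and 3.02 to 9.86 in the 15 tumours, with no overlap. The ratio of Mki67 to Cdc20 was 8.11 to 11.4 in skin and 2.80 to 5.39 in tumours, again with no overlap. Against the mean log2 CPM of all other mitotic genes the ranges touched, with Mki67 3.34 to 3.67 higher in skin and 2.15 to 3.37 higher in tumours, where Ivl tumour 3 lay above skin 4. These ratios do not depend on how libraries are scaled. They were computed after the fits had been seen and were not tested.

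Cenpf, a kinetochore protein, was at 106, 68.4, 63.8 and 28.0 CPM in skin, at 48.7, 63.4 and 109 in Ivl tumours and at 34.4, 49.0 and 71.7 in K5/K14 tumours. All groups overlapped. The log2 difference was 0.03 ± 0.27 in Ivl (adjusted p = 0.93), with a sign that turned to −0.71 with library totals, and −0.44 ± 0.25 in K5/K14 tumours (adjusted p = 0.13). Kif23, a kinesin of the midbody, was at 44.8, 25.8, 27.9 and 13.9 CPM in skin, at 27.5, 37.4 and 43.1 in Ivl and at 22.4, 29.1 and 32.5 in K5/K14 tumours, and skin 1 was above every tumour. Its log2 difference was 0.38 ± 0.22 (adjusted p = 0.158) and 0.03 ± 0.20 (adjusted p = 0.91), and both turned below 0 with library totals. Top2a (topoisomerase II), Cenpe and Kif11 were raised in Ivl tumours, by 0.74, 0.73 and 0.75 log2, and missed the threshold in K5/K14 tumours with values of 0.44, 0.48 and 0.43 (adjusted p = 0.0869, 0.0865 and 0.12). The Ivl calls of Cenpe and Kif11 were lost in 8 and 6 of 19 cases with 1 library left out and under 7 of 10 other settings each, DESeq2 among them, and that of Top2a in 2 cases and under 6 settings. For none of the 3 did the direct comparison of the tumour groups pass (adjusted p = 0.38, 0.523 and 0.39).

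Of the 14 replication genes, 12 rose in Ivl and 14 in K5/K14 tumours. Pcna, the sliding clamp of the DNA polymerases, was at 83.0, 63.1, 73.2 and 68.6 CPM in skin, at 99.2, 138 and 153 in Ivl tumours and at 120, 137 and 161 in K5/K14 tumours. Every tumour was above every skin library. Pcna rose by 0.88 ± 0.13 log2 in Ivl (adjusted p = 3.91e-05) and by 0.97 ± 0.12 in K5/K14 tumours (adjusted p = 4.65e-06), the smallest adjusted p of any member in both. As a share of library totals it was 96.9 to 138 CPM in skin and 103 to 147 in tumours, and on that scale the ranges overlapped.

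The 6 subunits of the MCM helicase, which unwinds DNA at the fork, rose in both groups. Mcm5 was at 56.9, 24.3, 44.4 and 25.6 CPM in skin, at 52.5, 107 and 125 in Ivl and at 66.5, 99.5 and 118 in K5/K14 tumours. The lowest Ivl tumour was below skin 1, and the K5/K14 tumours were all above it. Mcm5 rose by 1.41 ± 0.26 and 1.37 ± 0.25 log2 (adjusted p = 0.000281 and 0.000141). Mcm2, Mcm3 and Mcm4 rose by 0.99 to 1.1 and Mcm6 and Mcm7 by 0.71 to 0.76. With library totals, Mcm6 turned below 0 in both groups and Mcm7 in K5/K14 tumours.

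The licensing and initiation factors were less alike. Cdt1, which loads the helicase, rose by 1.02 and 1.14 log2. Cdc6, its partner in loading, rose in K5/K14 tumours (0.64, adjusted p = 0.0195) and had a value of 0.58 in Ivl tumours (adjusted p = 0.0605). Gins2, a subunit that completes the helicase, was at 7.25, 5.94, 6.63 and 6.69 CPM in skin, at 9.41, 12.9 and 13.6 in Ivl and at 10.8, 13.4 and 14.2 in K5/K14 tumours, with no overlap. It rose by 0.89 ± 0.14 (adjusted p = 5.32e-05) and 0.97 ± 0.13 (adjusted p = 7.55e-06). Exons of Gins2 overlap Gse1 on the other strand over 67.3% of their length, so its counts may hold reads of Gse1.

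Of the genes of nucleotide supply, both subunits of ribonucleotide reductase rose. Rrm1 was at 98.5, 62.4, 74.5 and 50.1 CPM in skin, at 99.2, 187.5 and 217 in Ivl and at 126, 144 and 176 in K5/K14 tumours. The lowest Ivl tumour lay just above skin 1. Rrm1 rose by 1.25 ± 0.21 (adjusted p = 0.000137) and 1.06 ± 0.20 log2 (adjusted p = 0.000225). Rrm2 was at 47.1, 18.8, 31.0 and 18.4 CPM in skin, at 41.1, 58.0 and 77.1 in Ivl and at 50.7, 75.2 and 89.4 in K5/K14 tumours, and rose by 1.03 ± 0.25 (adjusted p = 0.00319) and 1.37 ± 0.24 (adjusted p = 0.000111). Thymidylate synthase (Tyms) rose by 0.58 and 0.37 (adjusted p = 0.0112 and 0.0456), the smallest called among replication genes, and its values were below 0 in both groups with library totals. Its K5/K14 call was lost in 10 of 19 cases with 1 library left out and lost or reversed under 7 of 10 other settings. Thymidine kinase (Tk1) is described with the tumour comparison.

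Of the G1 cyclins, Ccne1, the partner of Cdk2 at the G1/S transition, had the largest log2 fold change of all members in Ivl tumours. It was at 8.08, 2.80, 5.62 and 4.06 CPM in skin, at 8.26, 18.2 and 22.3 in Ivl and at 9.61, 15.3 and 23.9 in K5/K14 tumours, where all tumours were above all skin but the lowest Ivl tumour by little. Ccne1 rose by 1.74 ± 0.30 (adjusted p = 0.000175) and 1.64 ± 0.29 (adjusted p = 0.000121). Ccnd1, cyclin D1 and the partner of Cdk4 and Cdk6, was at 95.9, 27.7, 74.4 and 43.1 CPM in skin, at 73.8, 148 and 181 in Ivl and at 88.2, 130 and 153 in K5/K14 tumours, and skin 1 overlapped both. It rose by 1.21 ± 0.30 (adjusted p = 0.00365) and 1.06 ± 0.28 (adjusted p = 0.00344). Ccne2, the second cyclin E, was at 14.1, 7.15, 9.39 and 6.4 CPM in skin, at 10.3, 15.5 and 21.7 in Ivl and at 7.40, 10.9 and 14.4 in K5/K14 tumours. It rose in Ivl tumours (0.75, adjusted p = 0.0229) and had a value of 0.22 in K5/K14 tumours (adjusted p = 0.396), both below 0 with library totals. The Ivl call of Ccne2 was lost under 6 of 10 other settings. Exons of Ccnd1 overlap LTO1 on the opposite strand over 23.4% of their length and exons of Ccne2 overlap Ints8 over 17.4%.

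Of the 3 transcription factors, Mybl2 (B-Myb, the factor that joins the MuvB complex at mitotic genes) was called. It was at 16.9, 4.28, 8.08 and 4.49 CPM in skin, at 7.83, 18.7 and 22 in Ivl and at 11.1, 16.6 and 19.3 in K5/K14 tumours, with skin 1 inside both tumour ranges. It rose by 1.06 ± 0.34 (adjusted p = 0.021) and 0.92 ± 0.32 (adjusted p = 0.0184). Foxm1, the forkhead factor of G2, was at 32.9, 13.1, 20.3 and 9.09 CPM in skin, at 14.1, 25.8 and 32.2 in Ivl and at 17.7, 24.5 and 28.7 in K5/K14 tumours, and skin 1 exceeded every tumour. Its differences of 0.41 and 0.29 missed the threshold (adjusted p = 0.223 and 0.321). E2f1, an activator of replication genes, had differences of 0.31 and 0.38 (adjusted p = 0.163 and 0.052), and all 4 values of Foxm1 and E2f1 turned below 0 with library totals.

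Normal skin itself varied widely in these genes. Skin 1 was the highest skin library for 40 of 41 members, and skin 4 was the lowest for 30 of 41 and for all 21 mitotic genes. Of 12534 genes with a mean of 3 to 400 CPM, 3388 were highest in skin 1 and 3114 were lowest in skin 4. Skin 1 exceeded skin 4 by a median of 3.23-fold over mitotic and 1.95-fold over replication genes. The median SD between skin libraries was 0.65 on the log2 scale over the members, against 0.27 over 12534 genes with a mean of 3 to 400 CPM. In Ivl, K5 and K14 tumours the members' median SD was 0.35, 0.25 and 0.16, against 0.36, 0.23 and 0.19 for those genes.

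The mean log2 level of a class, relative to the mean of the 4 skin libraries, gives the overlap with tumours in 1 value per library. For mitotic genes it was 0.82, −0.19, 0.21 and −0.84 in skin 1 to 4, 0.64 to 1.33 in Ivl, 0.65 to 1.09 in K5 and 0.88 to 1.21 in K14 tumours. For replication genes it was 0.55, −0.33, 0.17 and −0.40 in skin, 0.61 to 1.15 in Ivl, 0.73 to 1.2 in K5 and 0.82 to 1.16 in K14 tumours. Skin 1 thus lay inside the tumour range for mitotic genes and below all tumours for replication genes. All 15 tumours were above skin 1 for 7 members and above the other 3 skin libraries for 26. The share of all genes with such values was not computed, so these counts are descriptions only.

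**Figure D3:**
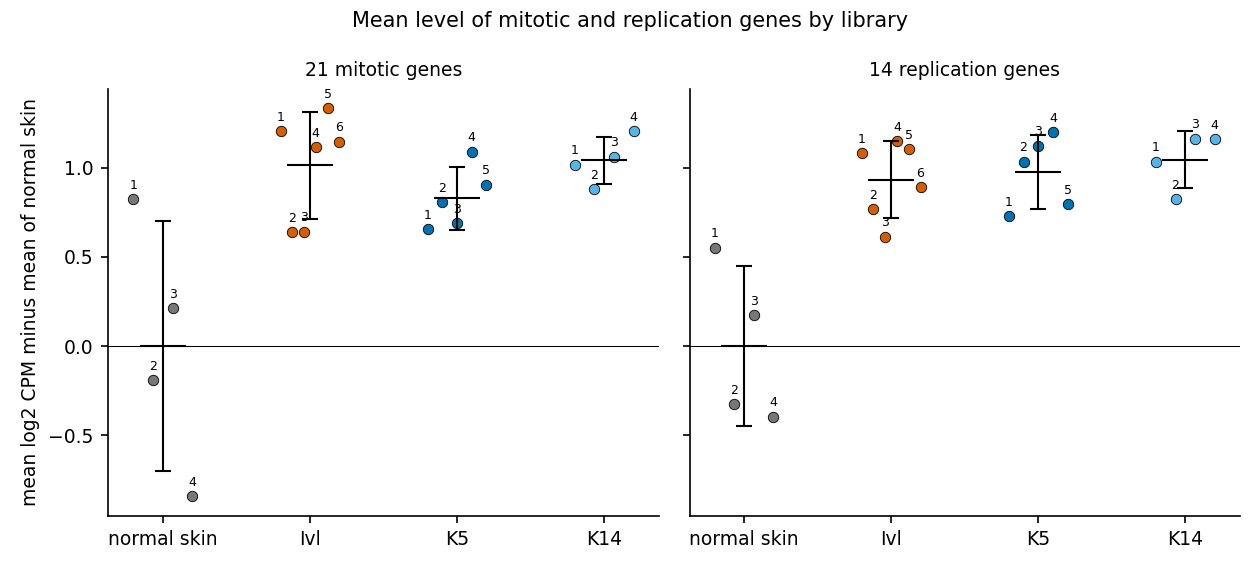
Mean log2 CPM of the 21 mitotic (left) and 14 replication genes (right) in each library, minus the mean over the 4 skin libraries, on the TMM scale, with points numbered by replicate and the mean and SD of each group drawn as bars. Skin 1 lies at 0.82 for mitotic genes, inside the range of the tumours, and at 0.55 for replication genes, below all of them.

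The calls moved with the skin libraries. Leaving out skin 1 raised the number of members called as raised to 39 in Ivl and 36 in K5/K14 tumours, and leaving out skin 2 lowered both to 25. With each of the 19 libraries left out in turn, 25 members were called as raised every time in each comparison. The share of all genes called in these fits is not given here. A change in the members therefore cannot be told apart from a change in overall calling. Summed markers of hair follicles, whose matrix cells divide, were 3140, 21, 1477 and 1067 CPM in skin 1 to 4, so that skin 1 and 3 were highest for these markers and for mitotic genes, while skin 2 was lowest for the markers and skin 4 for mitotic genes. In tumours they were 5.50 to 1698 in Ivl, 9.98 to 14.5 in K5, where Shh was at 0 in all libraries, and 10.4 to 1111 in K14. Their part in the results was not tested.

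As summed CPM, keratinocyte markers moved far more than the members. Taken gene by gene, the 8 basal markers had a median log2 fold change of 0.855 in Ivl tumours. In K5/K14 tumours it was 1.51, and 2 of the 8 were lowered there. The 8 differentiated markers had medians of 2.73 and 2.31. The sum over 8 basal keratinocyte markers was 4573 to 10080 CPM in skin and 43290 to 66990 in K5/K14 tumours. In Ivl tumours it was 11590 in tumour 1 and up to 59150 in the others. The sum over 8 markers of differentiated keratinocytes was 2831 to 6229 CPM in skin and 11390 to 58430 in tumours. Per 100 CPM of basal markers, the members summed to 11 to 52.9 CPM in skin, 3.60 to 5.85 in K5/K14 tumours and 5.36 to 27.2 in Ivl tumours, the highest being Ivl tumour 1. Relative to the sum of basal keratinocyte markers, the members were therefore lower in all K5/K14 tumours than in any skin library. Neutrophil markers summed to 9.18 to 37.4 CPM in skin and 103 to 6576 in tumours. How far any cell type adds to the members' levels was not tested.

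The fold change of mitotic genes went with summed exon length. This length joins the exons of all annotated transcripts of a gene, so it can exceed that of any single transcript. Over the 21 mitotic genes, Pearson's r between log2 fold change and the logarithm of summed exon length was −0.81 in Ivl and −0.82 in K5/K14 tumours (Spearman's rho −0.77 in both), and over the 14 replication genes r was −0.08 and −0.32. These correlations are across genes measured in the same libraries and carry no p. Cdc20 has 1.87 kb of exons, while the exons of Top2a, Mki67 and Cenpf sum to 9.01, 10.1 and 15.4 kb. Rrm1, with 11 kb by this summed length, departed from the order with its rise of 1.25.

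The same slope was present in other genes. Among protein-coding genes with a mean of 3 to 400 CPM, the median log2 fold change fell from 0.79 for exons under 2 kb to −0.17 for exons over 8 kb in Ivl tumours, and from 0.89 to −0.27 in K5/K14 tumours. Against the median of genes in the same length class, 40 of 41 members were above 0 in Ivl tumours (median 0.65) and 37 of 41 in K5/K14 tumours (median 0.57). The mitotic genes then stood at a median of 0.67 and 0.57 and the replication genes at 0.56 and 0.61. Mki67 stood 0.46 above genes of like length in Ivl tumours and 0.10 above in K5/K14 tumours. Cenpf stood 0.17 below them in K5/K14 tumours. This measure was chosen after the fits had been seen. RNA quality values of the libraries were not used here, and the part of the difference in Rn7sk between skin and most tumours in this slope or in the members' values was not tested.

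**Figure D4:**
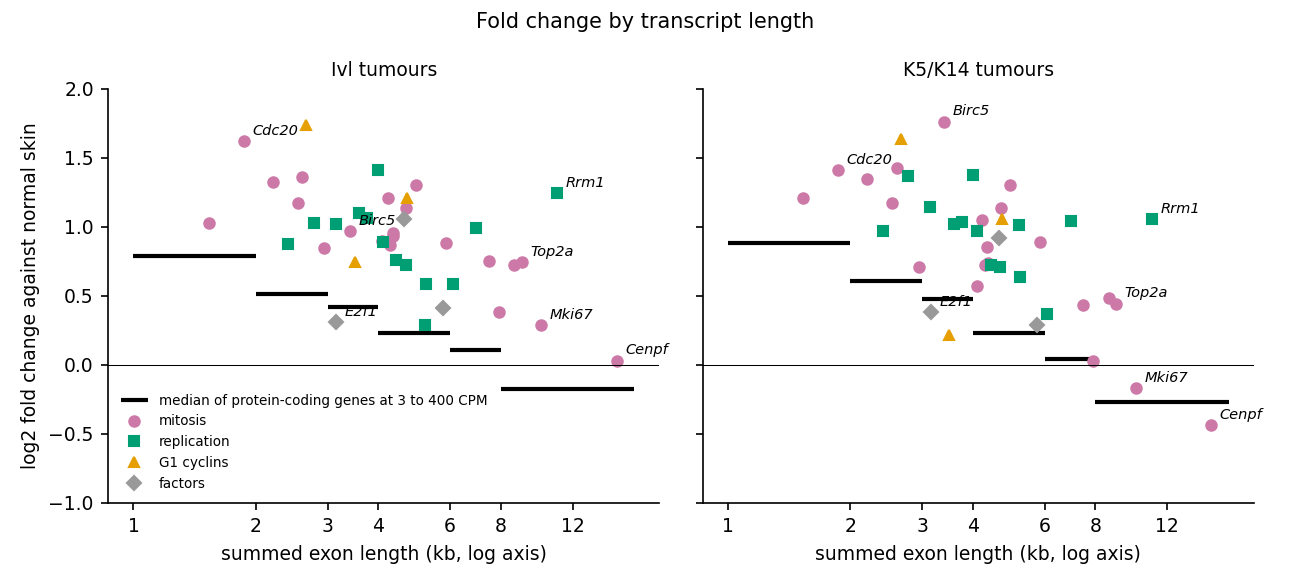
Log2 fold change against normal skin on the TMM scale of the 41 genes by summed exon length (log axis, kb), with black lines at the median of protein-coding genes of 3 to 400 CPM in each length class, where the first and last classes are open. The lines fall from 0.79 to −0.17 in Ivl and from 0.89 to −0.27 in K5/K14 tumours, and most members lie above them. With library totals as the scale, 13 of the Ivl and 17 of the K5/K14 values are below 0.

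Between tumours of different origin, members differed little. In Ivl against K5/K14 tumours 0 of 41 members were higher (background 1.77%) and 2 were lower (background 0.593%). They were Birc5, at chr11:117849251-117855743 on the plus strand, and Tk1, at chr11:117815526-117826092 on the minus strand. The next smallest adjusted p of a member was 0.127. The median log2 difference was 0.15 over mitotic and −0.02 over replication genes, and 0.11 over all genes.

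Birc5 encodes survivin, a subunit of the chromosomal passenger complex with Aurora B and an inhibitor of apoptosis. It was at 15.3, 21 and 25.1 CPM (lowest, median, highest) in Ivl tumours, at 26.0, 34.1 and 44.8 in K5/K14 tumours and at 17.9, 7.99, 10.8 and 5.37 in skin 1 to 4. Every K5/K14 tumour was above every Ivl tumour, as in 0.343% of all genes, and the Ivl tumours were above 3 of the 4 skin libraries. Birc5 was lower in Ivl than in K5/K14 tumours by a log2 difference of −0.79 ± 0.20 (adjusted p = 0.0393). Against skin it rose by 0.97 in Ivl (adjusted p = 0.00415) and by 1.76 in K5/K14 tumours (adjusted p = 8.59e-06), the largest fold change of any member there. Relative to Cdk1, Birc5 had a CPM ratio of 0.273 to 0.497 in Ivl, 0.387 to 0.783 in K5, 0.577 to 0.686 in K14 tumours and 0.384 to 0.471 in skin.

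Tk1, thymidine kinase of the salvage pathway, was at 25.3, 31.2 and 38.6 CPM in Ivl tumours, at 38.0, 50.3 and 64.9 in K5/K14 tumours and at 42.0, 21.2, 24.5 and 13.3 in skin. The highest Ivl and the lowest K5/K14 values overlapped by less than 1 CPM, and skin 1 was above every Ivl tumour. Tk1 was lower in Ivl than in K5/K14 tumours by −0.73 ± 0.18 log2 (adjusted p = 0.0398). It rose against skin in K5/K14 tumours (1.01, adjusted p = 0.000548), while Ivl tumours had a value of 0.29 (adjusted p = 0.278) that turned to −0.44 with library totals. The ratio of Tk1 to Tyms, the enzyme of the parallel route to thymidylate, was 0.835 to 1.43 in Ivl, 1.6 to 2.89 in K5, 1.84 to 2.18 in K14 tumours and 1.06 to 1.54 in skin. The ratio of Tk1 to Pcna was 0.178 to 0.263 in Ivl, 0.286 to 0.522 in K5, 0.361 to 0.427 in K14 tumours and 0.194 to 0.506 in skin. For both ratios all K5 and K14 tumours were above all Ivl tumours, a comparison made after the fits had been seen and not tested.

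**Figure D5:**
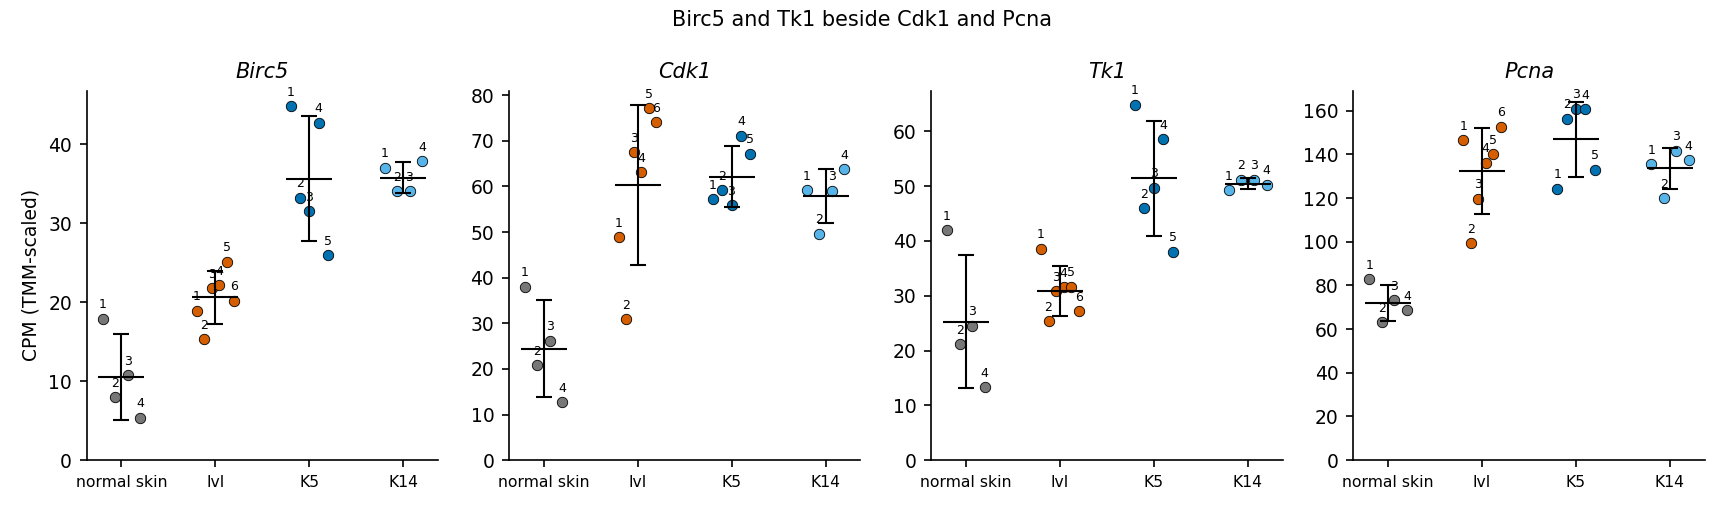
CPM on the TMM scale of Birc5 and Tk1, and of Cdk1 and Pcna for comparison, in each library, with points numbered by replicate and the mean and SD of each group drawn as bars. Birc5 spans 15.3 to 25.1 CPM in Ivl and 26.0 to 44.8 in K5 and K14 tumours, while Cdk1 and Pcna overlap between the tumour groups.

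Both calls were lost under several settings. Without the set of 4 libraries, 3 Ivl tumours remained, the differences were −0.62 (adjusted p = 0.373) for Birc5 and −0.71 (adjusted p = 0.237) for Tk1, and 0 members were called as lower (background 0.197%). With 1 library left out in turn, the adjusted p ran from 0.0175 to 0.0836 for Birc5 and from 0.0179 to 0.0836 for Tk1, and the call was lost in 13 and 12 of 19 cases. With library totals 0 members were called. Against each origin alone, chosen after seeing the data, Birc5 differed by −0.79 from K5 (adjusted p = 0.0735) and by −0.80 from K14 tumours (adjusted p = 0.423), and Tk1 by −0.74 (adjusted p = 0.0719) and −0.71 (adjusted p = 0.427). The direction was the same each time.

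Of the members not called between Ivl and K5/K14 tumours, those with the smallest adjusted p had higher values in Ivl tumours. Ccne2 differed by 0.53 ± 0.19 log2 (adjusted p = 0.127), Mki67 by 0.46 ± 0.21 (adjusted p = 0.226) and Cenpf by 0.47 ± 0.22 (adjusted p = 0.229). Rrm2 differed by −0.34 (adjusted p = 0.335) and Tyms by 0.21 (adjusted p = 0.381). The values of Tpx2, Mcm6, Ccnd1, Ccne1 and Foxm1 lay between −0.01 and 0.15. The standard errors of these differences ran from 0.10 to 0.27 over the 41 members.

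Between K5 and K14 tumours 0 of 41 members were called in either direction (background 0.0%) by edgeR, 0 had an unadjusted p under 0.05, and 0 were called with DESeq2. Mki67 had the smallest adjusted p (−0.45 in K5 against K14, adjusted p = 0.863). Cenpf had a value of −0.41, Foxm1 −0.33, Aurka −0.28 and Mybl2 −0.28. Among replication genes Mcm7 had −0.22, Mcm6 −0.18 and Pcna 0.14. For Foxm1 all K5 tumours were below all K14 tumours, 1 member of 41, where 2.4% of all genes had such ranges. Mitotic genes had values below 0 for 19 of 21, with a median of −0.23, while the median over all genes was 0.00.

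Members of a class rose and fell together between tumours. Over the 15 tumours the median Pearson's r of log2 CPM was 0.54 between pairs of mitotic genes, 0.43 between pairs of replication genes and 0.37 between the classes. Without the set of 4 libraries (11 tumours) these were 0.76, 0.48 and 0.19. Mcm5 went most closely with its class (0.82 over the 15 tumours), followed by Mcm6 (0.76) and Mcm7 (0.75). Birc5 had a median r of −0.11 with the other mitotic genes over 15 tumours and −0.33 over 11, where the next lowest mitotic gene, Ccnb2, was at 0.55. Tk1 had 0.09 and 0.15 with the other replication genes. Tumours of all origins were pooled, so the lower Birc5 and Tk1 of Ivl tumours enters their values, which are no separate result. The points share their libraries and scaling, so all these values are descriptions.

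Per kb of exon, the order of the members differed between tumours and skin. In tumours, by the mean over the 3 groups, Pcna led with 57.4 CPM per kb, followed by Cdc20 at 44.6, Mki67 at 31.0, Ccnd1 at 27.7 and Top2a at 25.2. In skin Mki67 was first with 30.7 CPM per kb and Pcna second with 30.0, which is within their spread, followed by Top2a at 17.1 and Cdc20 at 15.9. Gins2 and Cdc6 were among the lowest in tumours with 3.11 and 1.86. Birc5, with 3.09 CPM per kb, had rank 34 of 41 in skin and reached 9.01 in tumours.

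Wider lists of the same machinery held raised genes and no lowered ones on the TMM scale, but not with library totals. Of 58 other mitotic genes, 44 were raised and 0 lowered in Ivl tumours (median 0.91) and 42 raised and 0 lowered in K5/K14 tumours (median 0.73), while library totals gave 4 raised and 4 lowered in Ivl (median 0.16) and 3 raised and 12 lowered in K5/K14 tumours (median −0.10). The Cdk-binding proteins Cks1b and Cks2 rose by 1.46 and 1.38 in Ivl and by 1.62 and 1.47 in K5/K14 tumours, and all 4 values were also called with library totals. Of 53 other replication genes, 40 and 31 were raised and 0 lowered, with medians of 0.68 and 0.58 that turned to −0.04 and −0.25 with library totals (3 raised and 5 lowered, and 3 raised and 21 lowered). The medians of the 14 replication members, 0.94 and 1.02 on the TMM scale, were larger than those of this list. Over all genes, 20.4% and 23.2% were raised and 15.5% and 38.9% lowered on the TMM scale. With library totals 8.95% and 10.1% were raised and 48.3% and 64.5% lowered, a larger lowered share than in either list. Geminin (Gmnn), the inhibitor of Cdt1, rose by 1.61 and 1.75, Gins1 by 1.28 and 1.32, and Rfc2, a subunit of the clamp loader, by 0.81 and 0.92, and with library totals Gmnn and Gins1 were still called in both comparisons and Rfc2 in neither. In Ivl against K5/K14 tumours 0 of the 58 and 0 of the 53 were called.

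Upstream regulators moved both ways. Of 25 RB-E2F and G1 regulators, 11 were raised and 1 lowered in Ivl tumours, and 13 raised and 5 lowered in K5/K14 tumours, and the medians of 0.33 and 0.34 turned to −0.38 and −0.49 with library totals (4 raised and 11 lowered, and 4 raised and 16 lowered). Over all genes 20.4% were raised and 15.5% lowered in Ivl and 23.2% and 38.9% in K5/K14 tumours, and with library totals 8.95% and 48.3%, and 10.1% and 64.5%, so the lowered share of this list on that scale was near that of all genes. Without the set of 4 libraries, 13 of the 25 were raised and 3 lowered in Ivl tumours, where 7101 and 10465 of 31971 genes were. In K5/K14 tumours 13 were then raised and 6 lowered, where 7647 and 13533 genes were. E2f4, the E2F of the DREAM repressor, rose by 1.1 and 1.24, and Tfdp1, the partner of E2F proteins, by 1.22 and 1.14. Cdk4 rose by 0.87 in both groups, and Fzr1, the G1 activator of the anaphase-promoting complex, by 0.72 in Ivl and 0.88 in K5/K14 tumours. Cyclin D2 (Ccnd2) fell by 1.02 and 1.80, and in K5/K14 tumours E2f2 fell by 1.04 and Rbl2, the pocket protein p130, by 0.62. With library totals, Cdk4 (0.15 in Ivl, 0.05 in K5/K14 tumours), Fzr1 (−0.0012 and 0.07) and, in K5/K14 tumours, Tfdp1 (0.31) were not called. The other values named here kept their sign.

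Of 7 inhibitors of cyclin-dependent kinases, 4 rose in both comparisons, and 0 fell in Ivl and 2 in K5/K14 tumours, while library totals gave 2 raised and 3 lowered in Ivl and 3 raised and 3 lowered in K5/K14 tumours. Without the set of 4 libraries, 4 rose and 2 fell in both comparisons on the TMM scale. Over all genes 20.4% rose and 15.5% fell in Ivl and 23.2% and 38.9% in K5/K14 tumours on that scale. With library totals these shares were 8.95% and 48.3% in Ivl and 10.1% and 64.5% in K5/K14 tumours. Without the set of 4, 7101 of 31971 genes rose and 10465 fell in Ivl tumours, and 7647 and 13533 in K5/K14 tumours. In each of these settings the lowered share of this list was no larger than that of all genes. Cdkn1a (p21) was at 95.6 to 112 CPM in skin, 172 to 326 in Ivl and 218 to 350 in K5/K14 tumours, with no overlap, and rose by 1.18 and 1.43 (0.45 and 0.62 with library totals, both still called). Cdkn2a, the locus of p16 and p19ARF, was at 0 to 0.956 CPM in skin, 1.01 to 29.5 in Ivl and 5.64 to 20.4 in K5/K14 tumours, with no overlap. It rose by 4.49 ± 0.98 (adjusted p = 0.00157) and 4.05 ± 0.93 (adjusted p = 0.00139), on a skin level near 0. Cdkn2b (p15) rose by 1.24 and 1.66 and Cdkn2d by 0.61 and 1.06, of which the first turned to −0.07 with library totals. Cdkn1b (p27) and Cdkn1c (p57) fell by 0.44 and 0.85 in K5/K14 tumours, and had values of −0.26 (adjusted p = 0.213) and −0.62 (adjusted p = 0.116) in Ivl tumours, where both were called as lower with library totals. Cdkn2c was not called in either (0.05 and −0.11, and −0.65 and −0.91 with library totals, where both were called as lower).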

How the data were processed

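Poly(A) libraries had been prepared from 15 tumours and 4 normal skins with a strand-specific kit, per the labels, and sequenced in pairs. The labels name the institute's facility and a commercial provider, which the study's methods tie to rRNA-depleted Ivl tumours; whether any library used here came from that provider is not given in the sources used here. The authors, per the labels and the study's methods, checked reads with FastQC 0.11.8, trimmed them with Trim Galore, aligned them with HISAT2 2.1.0 to GRCm38, counted them with featureCounts (Subread 1.6.3) and removed a sequencing batch from the table by ComBat-seq. The deposited values are therefore estimated counts, although they are whole numbers. The batch of each library, and whether strand was used in counting, are not given in the sources used here.

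The filter kept the 32031 genes that reached 5 counts in 1 library or more. They were scaled with TMM, and edgeR 4.0.16 (limma 3.58.1, R 4.3.3) tested them by the two-sided quasi-likelihood F test with robust estimation, all 19 libraries in 1 fit, with Benjamini-Hochberg adjustment over all genes. The test was checked on simulated data. The design had assumed plain counts, and the same test was used on the estimated counts. K5 and K14 tumours were merged as in the study. Standard errors follow from each F statistic and its fold change, and log2 CPM values use a prior count of 2. Gene positions, exon lengths and overlaps came from GENCODE on GRCm38, where 34694 identifiers matched and 113 did not. Promoter windows came from RefSeq. No pair of libraries of 1 group agreed within sampling noise (37 pairs, smallest chi-square per degree of freedom 25.9).

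The members and lists were chosen with earlier results of these data known. All 41 members may be named. Full values are given for Mki67 and, in each comparison and class, for the 3 members with the smallest adjusted p and the 1 with the largest. Of other lists, up to 3 genes per direction and all inhibitors of cyclin-dependent kinases are named. Alternatives were DESeq2 1.42.0, its size factors, library totals, scaling on protein-coding genes, other filters, the set of 4 libraries left out or as a covariate, only the groups compared, the replicate number as a block, and each library left out. Comparisons with genes of like length and of K5 and K14 apart were added after the data had been seen.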

Additional observations from a re-analysis of the deposited data

Results flagged for a closer look

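In 8 of 205 sets of libraries (41 genes in 5 groups) 1 library lay far from the rest by Dixon's criterion, which chance alone passes in about 1 of 20. In Ivl tumours, tumour 1 was highest for Cenpf at 109 CPM (next 65.6) and for E2f1 at 15.2 CPM (next 11.3), and tumour 3 was lowest for Mybl2 at 7.83 CPM (next 17.6). In K5 tumours, tumour 4 was highest for Aurka at 30.8 CPM (next 22.5). In K14 tumours, tumour 2 was lowest for Mcm2 at 57.5 CPM (next 70.6), for Mcm6 at 72.7 CPM (next 86.2) and for Mybl2 at 13.1 CPM (next 18.9). In the merged K5/K14 group, K5 tumour 1 was lowest for Cdc20 at 39.7 CPM (next 67.5). Ivl tumours 1 and 3 and K5 tumour 1 belong to the set of 4 libraries picked out by the scan.

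The response to skin differed between Ivl and K5/K14 tumours for Birc5, by −0.79 log2, and for Tk1, by −0.73, in the direct test of that difference. Neither passed without the set of 4 libraries.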

How the results depend on the processing

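Counts of raised members against skin (34 in Ivl, 32 in K5/K14 tumours) were 22 to 35 and 24 to 33 under the alternatives other than library totals and single libraries left out, the lowest in Ivl, 22, with only the groups compared. The calls over all genes moved as well. With only the groups compared, 4844 of 31794 genes were raised in Ivl tumours, against 6535 of 32031 in the main fit. With protein-coding scaling, which gave the 24, 6188 genes were raised in K5/K14 tumours, against 7440 in the main fit. Leaving out 1 library gave 25 to 39 and 25 to 36, lowest without skin 2 and highest without skin 1, and lowered counts of 0 to 1 in K5/K14 tumours, where protein-coding scaling also called 1 member lowered. Medians with 1 library left out were 0.69 to 1.27 (mitotic) and 0.82 to 1.08 (replication) in Ivl, and 0.60 to 1.16 and 0.91 to 1.2 in K5/K14 tumours. Library totals gave 5 raised, 1 lowered and medians of 0.16 and 0.22 in Ivl, and 6 raised, 6 lowered and medians of 0.0135 and 0.18 in K5/K14 tumours. The share of higher among all called genes was then 15.7% and 13.6%. DESeq2 size factors shifted the median of all genes by −0.13 and −0.11, and protein-coding scaling by −0.19 and −0.20.

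With library totals the sign of 28 values, of 18 members, turned, to −0.45 (Mki67), −0.0105 (Top2a), −0.0199 (Cenpe), −0.71 (Cenpf), −0.006 (Kif11), −0.35 (Kif23), −0.014 (Mcm6), −0.15 (Tyms), −0.44 (Tk1), −0.14 (Cdc6), −0.0095 (Ccne2), −0.34 (Foxm1) and −0.39 (E2f1) in Ivl tumours. In K5/K14 tumours they turned to −0.40 (Top2a), −0.27 (Ccna2), −0.11 (Bub1), −0.12 (Bub1b), −0.12 (Aurkb), −0.37 (Cenpe), −0.41 (Kif11), −0.81 (Kif23), −0.12 (Mcm6), −0.10 (Mcm7), −0.46 (Tyms), −0.20 (Cdc6), −0.63 (Ccne2), −0.55 (Foxm1) and −0.43 (E2f1). Values near 0 also turned: Cenpf in Ivl tumours to −0.11 with DESeq2, its size factors and filterByExpr, −0.17 with protein-coding scaling, −0.0518 outside the set of 4, −0.0206 with only the groups compared, and −0.15, −0.0217, −0.0124 and −0.24 without Ivl 1, K14 1, skin 3 or skin 4, with a range over all libraries left out of −0.24 to 0.34. Kif23 in K5/K14 tumours turned to −0.0862 with DESeq2, −0.0864 with its size factors, −0.10 with filterByExpr, −0.19 with protein-coding scaling, and −0.0597, −0.0217 and −0.21 without K14 1, skin 2 or skin 4, with a range of −0.21 to 0.35. Mki67 in K5/K14 tumours turned to 0.22 without skin 1. The cause was not tested.

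The 2 members lowered in Ivl against K5/K14 tumours became 0 with library totals, 0 outside the set of 4, 1 with the set as a covariate, and 0 to 2 with 1 library left out. Replicate numbers did not pair the samples: of 25 same-numbered pairs 9 correlated over 0.1 (r −0.50 to 0.43), and 2 of 19 libraries correlated best with their own number. With the replicate number as a block, 27 members were raised in Ivl and 30 in K5/K14 tumours, and 0 were lowered in Ivl against K5/K14 tumours (Birc5 −0.78, adjusted p = 0.134; Tk1 −0.68, adjusted p = 0.115). Depth was not limiting, since each member had at least 249 counts in every library. With 4 skin libraries, 1 of them decides several calls.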
